A study of Homo sapiens with 8 samples.

Results

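NF-κB is a family of dimeric transcription factors built from the subunits RELA, RELB, REL, NFKB1 and NFKB2. The members examined were these 5 subunits together with NFKBIA, NFKBIB, NFKBIE, TNFAIP3 and BIRC3, which hold the pathway back or feed back on it. They were chosen as all probe sets that the platform annotation assigns to 1 of these 10 genes. This gave 20 probe sets for 9 genes, out of 54613 probe sets on the array, with 6 genes represented by more than 1 probe set. The expression of BIRC3 was not analysed here.

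Expression was measured on 8 Affymetrix arrays of MDA-MB-231 cells, an established human line from metastatic breast cancer with mutant p53. All cells carried a retroviral hairpin RNA against GFP as a control and had been without serum for 24 h. In 1 group of 4 arrays they were left untreated, and in the other group of 4 they received TGFβ for 3 h, at a labelled dose of 5 µg/ml, a unit that is doubtful since TGFβ is usually dosed in ng/ml. Both groups have arrays lettered A, B, C and D, called biological replicates in the labels, which do not say what a letter shares or whether cultures were separate. The p-values therefore measure the spread between these arrays. The series asks which genes TGFβ and mutant p53 control together, and its p53-depleted arrays were not analysed here, so the question here is how the control cells' NF-κB genes stood before and after TGFβ.

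In resting cells NF-κB dimers are held in the cytoplasm by IκB proteins such as those encoded by NFKBIA, NFKBIB and NFKBIE. Signals from tumour necrosis factor or interleukin-1 receptors activate IκB kinases, the inhibitors are degraded, and the dimers enter the nucleus. NFKBIA and TNFAIP3 are themselves classic NF-κB target genes, so that the pathway switches on its own brakes. In MDA-MB-231 cells NF-κB is known to be constitutively active. The arrays measure transcripts only, and subunit activity is mostly set by protein degradation and location, which they do not measure. Fewer cells expressing a transcript and less of it per cell cannot be told apart in such bulk samples.

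No member passed the test for a response to TGFβ. All values are RMA signals on a log2 scale, and fold changes are treated minus untreated. Of the 20 probe sets, 0 passed at a limma adjusted p of 0.05, also with the trended and robust prior, against 0.256% of all probe sets. At an unadjusted p of 0.05 there were 3 (15.0%), against 7.44% of all probe sets. They were NFKB1 209239_at (fold change 0.26) and the REL probe sets 206036_s_at (-0.46) and 206035_at (0.23). Both of these REL probe sets had means under the array median, and their signs were opposite. With the letter as a replicate block, a fit that compares arrays of the same letter, again 0 passed, against 1.75% of all probe sets. The groups overlapped for all 20 probe sets. Groups without overlap made up 4.75% of all probe sets, so 0 of 20 is near that share. The same direction in all 4 letters was seen in 7 probe sets, 5 higher and 2 lower, against 21.0% of all probe sets. The median log2 fold change of the members was -0.01 and that of all probe sets 0.01. The 95% confidence interval lay within 1 log2 unit (2-fold) either way for 19 of the 20 and, with the block, for all 20.

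The treatment itself registered in the same arrays. SMAD7, the inhibitory SMAD of TGFβ feedback, rose by 1.81 ± 0.21 on the log2 scale (SE, n = 4 in each group, limma adjusted p = 0.0039). The transcription factor gene JUNB rose by 1.64 ± 0.11 (SE, n = 4 in each group, adjusted p = 0.000168). The array medians lay between 4.62 and 4.66. The 6 genes listed as mesenchymal and basal breast line markers were VIM, CD44, ZEB1, AXL, EGFR and KRT18, though KRT18 is also a luminal keratin. Their untreated means ran from 8.83 (ZEB1) to 13.64 (VIM). The 7 luminal breast markers ranged from 3.12 for the progesterone receptor PGR to 11.47 for the keratin KRT19, with EPCAM at 8.39, GATA3 at 7.57 and ERBB2 at 7.21, so that list was not low as a whole. Of these 7, only the cadherin CDH1 passed, rising from 4.08 ± 0.11 to 4.98 ± 0.18 (SD, n = 4 in each group, limma adjusted p = 0.00579). The mean of the 5 leukocyte markers measured lay between 4.27 and 4.50 on every array, with PTPRC at 4.20 ± 0.43 untreated and 4.35 ± 0.19 treated (SD, n = 4 in each group). RMA gives no detection calls. Treated array A stood apart in RNA quality, with a 3′ minus 5′ difference of the actin control of 1.68 log2, against 0.63 to 0.89 on the other 7 arrays, and of 0.54 for GAPDH, against 0.06 to 0.14. Untreated array A was highest of the other 7 in both.

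**Figure D1:**
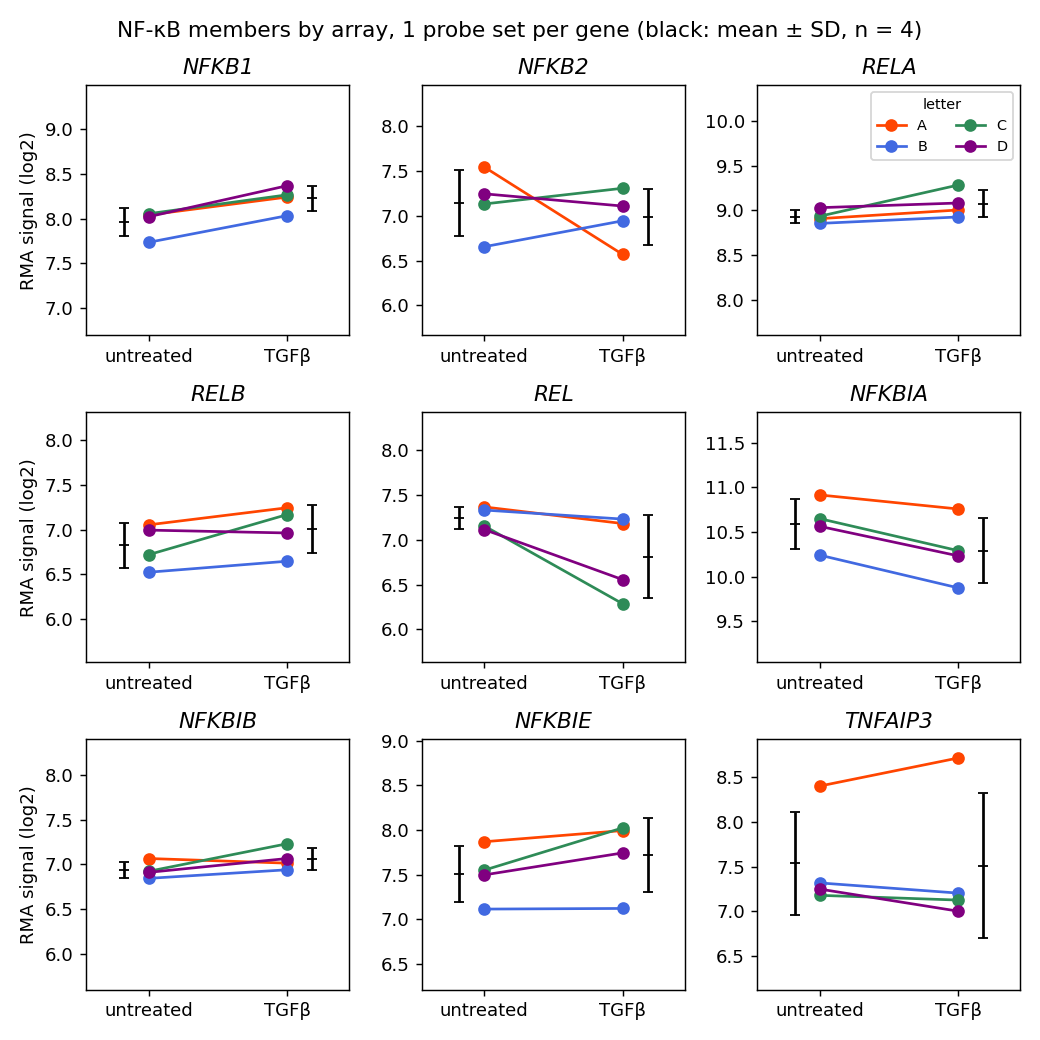
RMA signal (log2, y axis) of 1 probe set for each of 9 NF-κB genes in untreated and TGFβ-treated cells (x axis), with a coloured line joining arrays of the same letter and black bars for mean ± SD (n = 4). Each panel spans the same number of log2 units. The groups overlap in every panel, and for TNFAIP3 and NFKBIA both arrays of letter A lie above the other 6.

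Because NF-κB genes are known to regulate each other, the promoters of the members whose values are described most closely were read from RefSeq (GRCh38.p14). The table used holds windows of 300 bases, 250 before and 50 after a start site, for 8 of the 10 members, and none was read for RELB and NFKBIE. They were searched on both strands for the κB consensus, the decamer that NF-κB dimers bind. A match was found in 8 of the 13 windows, belonging to 7 of the 8 genes (RELA had none), against 11.3% of 35116 windows of all genes. The short SMAD-binding letters CAGAC were found in 6 of the 13 windows, against 45.3% of all. A match is only a run of letters and does not show that a factor binds there. Printed are the 120 bases before the start site, 5′ to 3′ on the gene's strand, with the bases of κB matches in capitals.

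NFKBIA, chr14:35404750-35404869, minus strand: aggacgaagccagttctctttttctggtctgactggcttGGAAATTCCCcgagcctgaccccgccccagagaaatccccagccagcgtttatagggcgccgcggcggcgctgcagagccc
TNFAIP3, chr6:137867139-137867258, plus strand: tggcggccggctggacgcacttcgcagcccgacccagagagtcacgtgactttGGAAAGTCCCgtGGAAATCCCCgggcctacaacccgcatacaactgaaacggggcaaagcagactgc
REL, chr2:60881454-60881573, plus strand: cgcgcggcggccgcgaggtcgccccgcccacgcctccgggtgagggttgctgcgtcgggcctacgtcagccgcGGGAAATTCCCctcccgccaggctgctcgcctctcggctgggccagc
NFKB1, chr4:102501239-102501358, plus strand: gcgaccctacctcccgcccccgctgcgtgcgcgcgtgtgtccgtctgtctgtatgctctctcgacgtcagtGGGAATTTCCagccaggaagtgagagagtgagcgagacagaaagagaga

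NFKBIA holds 1 match, beginning 81 bases before the start. TNFAIP3 holds a side-by-side pair beginning 67 and 55 bases before it. In REL 2 matches, 1 on each strand, overlap at 47 and 46 bases. In NFKB1 the match begins 49 bases before the start.

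Among the subunits, NFKB1, which encodes the p105 precursor of p50, was higher after TGFβ in every letter without passing the test. Its probe set 209239_at (Entrez Gene 4790) read 8.04, 7.74, 8.06 and 8.02 in untreated arrays A to D and 8.24, 8.03, 8.27 and 8.37 in the treated arrays. The differences within letters were 0.20, 0.30, 0.21 and 0.35, but treated B lay among the untreated arrays. The log2 fold change was 0.26 ± 0.11 (SE, n = 4 in each group, 95% interval 0.02 to 0.51) and did not pass (limma adjusted p = 0.616; 0.196 with the block). Its upper bound is 1.42-fold.

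RELA, the transactivating subunit of the classical dimer, was measured by 2 probe sets. The brighter, 201783_s_at (Entrez Gene 5970), read 8.91, 8.85, 8.93 and 9.03 untreated and 9.00, 8.93, 9.28 and 9.08 treated. All 4 letters had a higher treated array, but by only 0.10, 0.07, 0.35 and 0.05, and the groups overlapped (log2 fold change 0.14 ± 0.10 SE, n = 4 in each group, adjusted p = 0.817). Its 95% interval, -0.08 to 0.36, ends at 1.29-fold. The other probe set, 209878_s_at, had a fold change of 0.00 ± 0.19 (SE, n = 4 in each group, interval -0.42 to 0.43), with 2 letters up and 2 down. On that probe set both arrays of letter A were below the other 6 (7.05 and 6.80 against 7.30 to 7.78), which held for 7.35% of all probe sets, so the 2 RELA probe sets differ in how they rank the letters.

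RELB and NFKB2 encode the partners of the noncanonical pathway, in which the p100 product of NFKB2 is trimmed to p52. RELB (205205_at, Entrez Gene 5971) read 7.05, 6.52, 6.72 and 7.00 untreated and 7.24, 6.65, 7.17 and 6.96 treated. It was higher in 3 of 4 letters, with a fold change of 0.18 ± 0.16 (SE, n = 4 in each group, interval -0.17 to 0.53, adjusted p = 0.86). For NFKB2 (Entrez Gene 4791) the brightest probe set, 207535_s_at, read 7.55, 6.65, 7.13 and 7.25 untreated and 6.57, 6.94, 7.31 and 7.11 treated. Its difference was -0.98 in letter A but 0.29, 0.18 and -0.14 in B, C and D. The fold change of -0.16 ± 0.20 (SE, n = 4 in each group, adjusted p = 0.914) thus rested on letter A, and without that letter, in the block fit, it was 0.11. The second NFKB2 probe set, 209636_at, did not share the drop in letter A (-0.07) and had a fold change of -0.10 ± 0.19 (SE, n = 4 in each group). The third, 211524_at, had mean signals of 2.66 and 2.60, under the array median, and a fold change of -0.05 ± 0.11 (SE, n = 4 in each group).

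REL encodes c-Rel, a transactivating subunit best known from lymphoid cells, and its probe sets held the most negative fold changes among the members. The brightest, 235242_at (Entrez Gene 5966), read 7.37, 7.33, 7.16 and 7.12 in untreated A to D and 7.18, 7.23, 6.29 and 6.56 in treated A to D. Treated C and D lay below every untreated array, while treated A and B lay within the untreated range. The fold change was -0.43 ± 0.20 (SE, n = 4 in each group, 95% interval -0.87 to 0.02, limma adjusted p = 0.691; 0.176 with the block). It was -0.25 without treated array C.

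The second REL probe set, 228812_at, read 5.78, 6.17, 5.52 and 5.65 untreated and 6.07, 5.81, 4.68 and 4.88 treated. Again treated C and D were lowest, with differences of -0.83 and -0.77, and letter A had a difference of 0.29 in the other direction. Its fold change was -0.42 ± 0.29 (SE, n = 4 in each group, adjusted p = 0.821; 0.33 with the block), and its interval, -1.07 to 0.23, was the only one among the members to reach beyond 2-fold. The third, 206036_s_at, had a fold change of -0.46 ± 0.20 (SE, n = 4 in each group, adjusted p = 0.653). With group means of 4.42 and 3.95 under the array median, it had -1.34 in letter C and -0.51 in D, but -0.17 and 0.17 in A and B. The 2 other REL probe sets were at 2.57 to 2.97 in the group means, further under it. Of these 206035_at was higher after TGFβ in all 4 letters (0.23 ± 0.10 SE, n = 4 in each group, adjusted p = 0.663), and 239486_at had a fold change of -0.12 ± 0.19. The 5 probe sets of REL therefore split into 3 with fold changes of -0.42 to -0.46 and the 2 dimmest nearer 0 or above it.

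**Figure D2:**
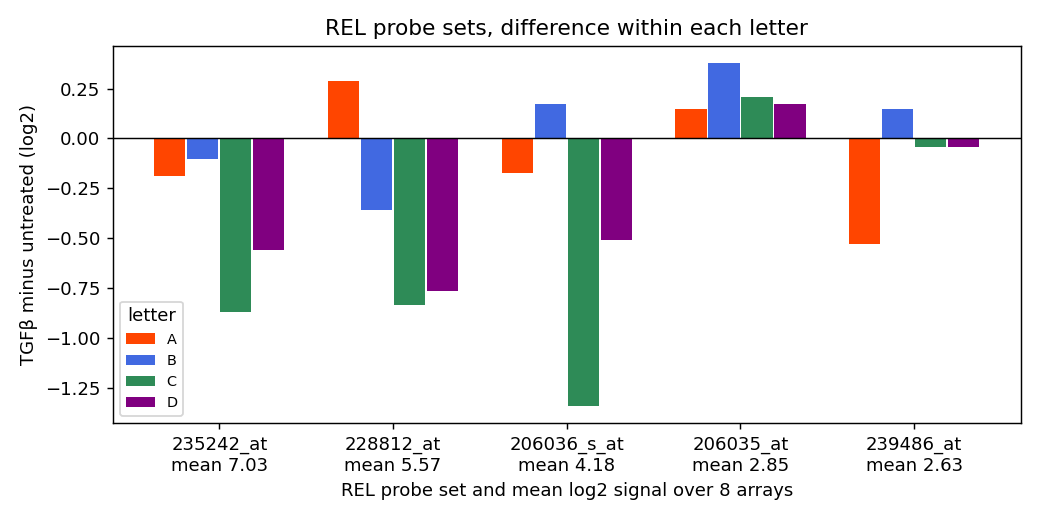
Difference between the treated and the untreated array of each letter (log2, bars, y axis) for the 5 REL probe sets, ordered by mean signal on the x axis. In the 3 brightest probe sets letters C and D lie between -0.51 and -1.34, and letters A and B between -0.36 and 0.29.

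With both arrays of letter A left out, a comparison chosen after the data were seen, 1 of the 5 REL probe sets passed in the block fit. This was 228812_at, with a fold change of -0.65 ± 0.12 (SE, 3 letters, limma adjusted p = 0.0239). Not passing were 235242_at (-0.51 ± 0.14, adjusted p = 0.107) and 206036_s_at (-0.56 ± 0.23, adjusted p = 0.265). The dimmest, 206035_at and 239486_at, had 0.25 ± 0.10 and 0.02 ± 0.10 (adjusted p = 0.252 and 0.949). Among the member probe sets 1 of 20 passed, against 2.59% of all. In the fit with 1 probe set per gene REL, represented by 235242_at, passed (-0.51 ± 0.13 SE, adjusted p = 0.0308), as did NFKBIA, so 2 of 9 genes passed, against 6.59% of all genes. The probe set 235242_at thus passed in the gene fit and not in the probe set fit, which differ in the number of features and in the SE.

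NFKBIA encodes IκBα, the inhibitor that NF-κB induces fastest. Its bright probe set, 201502_s_at (Entrez Gene 4792), read 10.91, 10.24, 10.65 and 10.56 untreated and 10.76, 9.88, 10.29 and 10.23 treated. The treated array was lower in each of the 4 letters, by -0.16, -0.37, -0.36 and -0.33, but treated A stayed above 3 of the untreated arrays. The spread between letters was larger than the difference between groups: the fold change was -0.30 ± 0.19 (SE, n = 4 in each group, 95% interval -0.73 to 0.12, adjusted p = 0.795). It was -0.16 without treated array B, -0.20 without untreated A and -0.46 without treated A. Taking the letter as a block narrowed the interval to -0.50 to -0.11, with an adjusted p of 0.149 over probe sets and 0.0896 over genes. Without letter A and with the block, the gene fit gave -0.35 ± 0.10 (SE, 3 letters, adjusted p = 0.0458) and the probe set fit an adjusted p of 0.102. The other NFKBIA probe set, 231699_at, had signals of 3.34 to 3.75, under the array median, and a fold change of 0.10 ± 0.11 (SE, n = 4 in each group).

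NFKBIB and NFKBIE, which encode IκBβ and IκBε, had small positive fold changes. The 3 probe sets of NFKBIB (Entrez Gene 4793) had 0.13, 0.07 and 0.17, none past the test, with adjusted p between 0.751 and 0.944. The narrowest of their intervals, for 228388_at, ran from -0.03 to 0.37. NFKBIE (203927_at, Entrez Gene 4794) read 7.87, 7.12, 7.55 and 7.50 untreated and 7.99, 7.12, 8.02 and 7.74 treated. It was higher in all 4 letters, by 0.12, 0.01, 0.47 and 0.25, and both arrays of letter B were lowest in their group. The fold change was 0.21 ± 0.21 (SE, n = 4 in each group, interval -0.26 to 0.69, adjusted p = 0.886; 0.407 with the block). Leaving out single arrays moved it from 0.08 (without untreated B) to 0.41 (without treated B).

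TNFAIP3 encodes A20, a ubiquitin-editing enzyme that shuts off signalling to the IκB kinases, and it differed far more between letters than between treatments. Its brighter probe set, 202644_s_at (Entrez Gene 7128), read 8.40, 7.32, 7.18 and 7.25 untreated and 8.72, 7.20, 7.13 and 7.00 treated. Both arrays of letter A were above all 6 others, by at least 1 log2 unit, while B, C and D lay close together. The treatment difference was 0.31 in A and -0.11, -0.05 and -0.25 in B, C and D, and the fold change was -0.03 ± 0.39 (SE, n = 4 in each group, interval -0.89 to 0.84, adjusted p = 0.995). The second probe set, 202643_s_at, read 7.40, 6.50, 6.64 and 6.42 untreated and 7.41, 6.24, 6.05 and 6.14 treated. There letter A did not differ with treatment (0.00), the other letters were lower by -0.26, -0.60 and -0.28, and the fold change was -0.28 ± 0.31 (SE, n = 4 in each group, adjusted p = 0.898; 0.29 with the block).

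**Figure D3:**
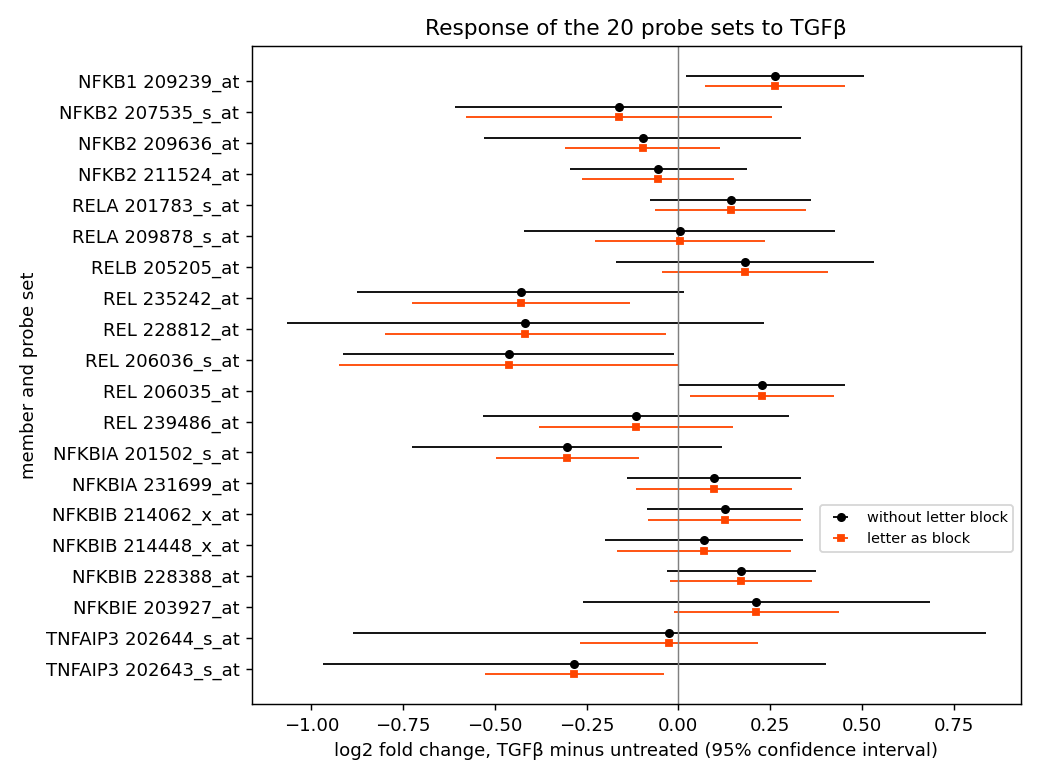
Log2 fold change (TGFβ minus untreated, x axis) with its 95% confidence interval for each of the 20 probe sets (y axis), from limma without the letter (black circles, 4 arrays a group) and with the letter as a block (orange squares). The point values are identical in both fits and lie between -0.46 and 0.26, and the block shortens the TNFAIP3 intervals most.

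Differences between letters were tested over all probe sets with limma's F test of the letter in the block fit, an analysis chosen after the data were seen. It called 5 of the 20 member probe sets, against 4.23% of all. They were both probe sets of TNFAIP3 (adjusted p = 0.00797 and 0.0152), NFKBIA 201502_s_at (0.0378), NFKBIE 203927_at (0.0430) and NFKB2 209636_at (0.0458). For TNFAIP3 the mean of the 2 arrays of letter A exceeded that of the other 6 by 1.38 log2 (2.60-fold) on 202644_s_at and 1.07 (2.10-fold) on 202643_s_at. For NFKBIA the excess was 0.53 (1.44-fold). Both A arrays lay above all 6 others in 4 member probe sets, against 8.58% of all, and both TNFAIP3 probe sets are among them. With 1 probe set per gene, the F test called 3 of the 9 member genes, against 10.2% of all genes. Both A arrays were on top in 2 of the 9, against 10.6% of all genes. The call of NFKBIE had a different shape, with letter means of 7.93, 7.12, 7.79 and 7.62 for A to D, so that letter B stood lowest.

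The values most like those of TNFAIP3 included an NF-κB target. Likeness was taken as the root mean square difference over the 8 arrays, after each gene was centred on its own mean, among 9886 genes with a mean signal above the median gene's. Nearest to TNFAIP3 were PHLPP1, an AKT phosphatase (0.14 log2), GJA1, the gap junction protein connexin 43 (0.15), and CXCL8, the neutrophil chemokine interleukin-8 (0.18). CXCL8 read 11.02, 9.64, 9.98 and 10.06 untreated and 11.64, 9.87, 9.90 and 9.90 treated, with letter A on top in both groups. These genes were picked for values like those of TNFAIP3, so the shared letter A pattern is a product of the choice. Nearest to NFKBIA were TTK, a spindle checkpoint kinase (0.06), PPARG, a nuclear receptor (0.07), and MASTL, a mitotic kinase (0.08). None of these 6 genes passed the test for TGFβ (limma adjusted p between 0.629 and 0.996). That outcome follows from their choice for values like those of members that did not pass.

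**Figure D4:**
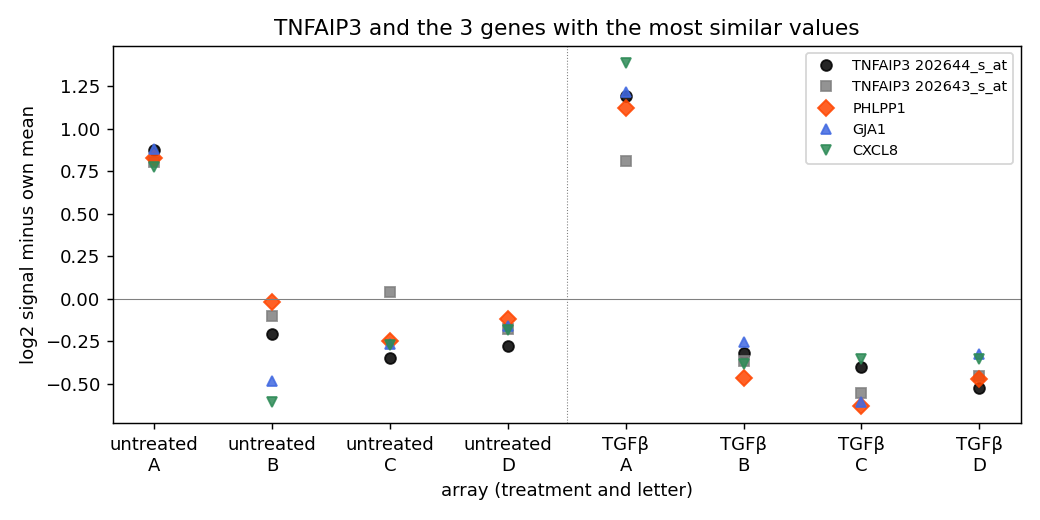
Log2 signal minus the gene's own mean (y axis) on each of the 8 arrays (x axis) for both TNFAIP3 probe sets and for PHLPP1, GJA1 and CXCL8. Each symbol is 1 array, and for all 5 features the 2 arrays of letter A lie above the other 6. PHLPP1, GJA1 and CXCL8 were picked for this likeness.

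The wider pathway was described with 4 lists of other genes, 81 of them measured. None passed the test without the block, against 0.576% of all genes, and 7 had an unadjusted p under 0.05, against 8.14% of all genes. Their median log2 fold change was 0.01, as over all genes. With the block 4 passed, 3 higher and 1 lower, against 3.57% of all genes.

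Of 29 kinases, adaptors and ubiquitin editors, 1 rose and 1 fell with the block and 27 did not pass, with a list median of 0.02. MAP3K14, which encodes NIK, the kinase that drives the noncanonical pathway, read 5.33, 5.86, 6.12 and 6.39 untreated and 6.17, 6.20, 6.94 and 6.73 treated. It was higher in all 4 letters, with a fold change of 0.59 ± 0.24 (SE, n = 4 in each group, adjusted p = 0.526; 0.0167 with the block). TRAF5, an adaptor of tumour necrosis factor receptors, read 6.33, 6.59, 6.14 and 6.03 untreated and 6.15, 6.10, 5.38 and 5.12 treated. It was lower in all 4 letters, with treated C and D lowest as for REL (-0.59 ± 0.23 SE, n = 4 in each group, adjusted p = 0.498; 0.0227 with the block). TAB1, a partner of the kinase TAK1, had -0.28 ± 0.13 (SE, adjusted p = 0.608).

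Of 18 ligands and receptors, 2 rose with the block and 16 did not pass, with a list median of 0.06. IL1RAP, the interleukin-1 receptor's accessory chain, had 0.44 ± 0.14 (SE, n = 4 in each group, adjusted p = 0.337; 0.0177 with the block). IL1A, the cytokine interleukin-1α and the other of the 2, had 0.72 ± 0.37 (SE, n = 4 in each group, adjusted p = 0.703; 0.0150 with the block) and was named after its values were seen. TNF and LTA, with group means of 3.79 to 4.91, had 0.32 ± 0.14 and 0.25 ± 0.11 (SE, n = 4 in each group; adjusted p = 0.606 and 0.603). Of 9 other IκB-like and nuclear regulators none passed, also with the block, and the list median was 0.04. NFKBIZ, an atypical nuclear IκB protein, had -0.26 ± 0.17, the repressor NKRF 0.23 ± 0.14 and the deacetylase SIRT1 -0.18 ± 0.13 (SE, n = 4 in each group; adjusted p = 0.809, 0.787 and 0.819).

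Of 25 NF-κB target genes none passed, also with the block, and 1 had an unadjusted p under 0.05. Their median log2 fold change was -0.01, with a range of -0.42 to 0.34. The chemokine gene CCL2 had 0.31 ± 0.09 (SE, n = 4 in each group, adjusted p = 0.271), at group means of 2.65 and 2.96, under the array median. The transcription factor IRF1 had -0.39 ± 0.18 and the chemokine CXCL10 -0.37 ± 0.20 (SE, n = 4 in each group; adjusted p = 0.639 and 0.732).

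**Figure D5:**
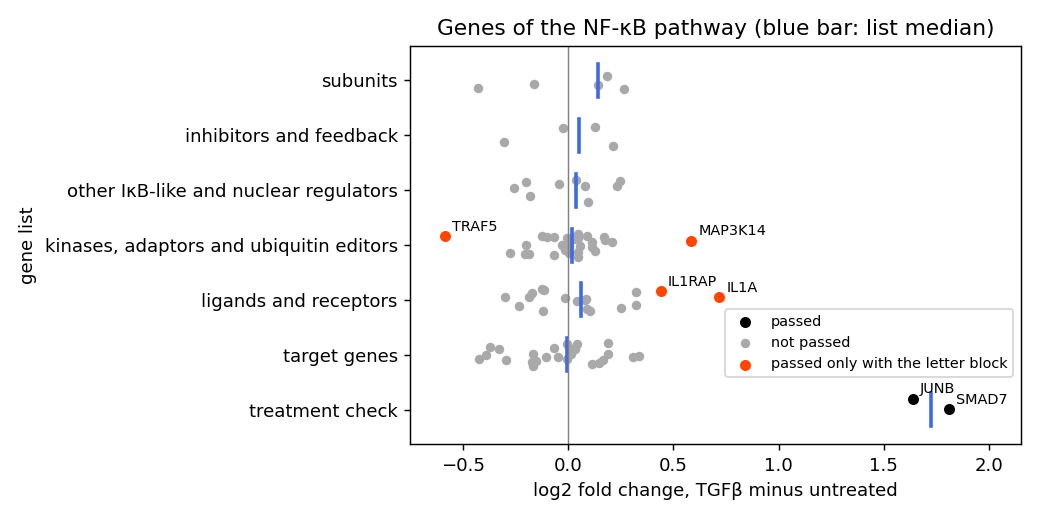
Log2 fold change (TGFβ minus untreated, x axis) of 1 probe set per gene for the NF-κB members, 4 lists of other pathway genes and the 2 genes that check the treatment (y axis). Grey points did not pass, orange points passed only with the letter as a block, black points passed without it, and blue bars are list medians. The pathway's genes lie between -0.59 and 0.72, and SMAD7 and JUNB at 1.81 and 1.64.

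Some of the target genes had the letter A pattern of TNFAIP3. Both arrays of letter A were above the other 6 in 10 of the 25 targets (40.0%), against 10.6% of all genes, and below them in 0. The median excess of letter A was 0.29 log2 over the targets and 0.02 over all genes. CCL20, a chemokine for dendritic and T cells, stood out with 7.22, 4.88, 5.64 and 5.31 untreated and 8.21, 4.63, 4.87 and 4.67 treated, an excess of letter A of 2.72 log2 (6.59-fold). The excess was 1.44 for CXCL8, 1.36 for both CXCL2 and the cytokine IL6, 1.16 for the survival gene BCL2A1 and 1.10 for the superoxide dismutase SOD2. BCL2A1 was under the array median throughout, at 4.055 in untreated A, 3.504 in treated A and 2.35 to 2.81 on the other 6 arrays. CXCL1, CXCL3, CFLAR and BCL2L1 complete the 10, all of which were picked by this pattern, so their values are a description. The other 15 did not have both A arrays on top, and 7 targets had no excess in A: CXCL10 (0.00), IRF1 (-0.05), TNFAIP2 (-0.06), CCL5 (-0.07), VCAM1 (-0.09), CCND1 (-0.14) and XIAP (-0.15). In the F test of the letter 12 of the 25 targets passed, against 10.2% of all genes. Of the kinases and adaptors 3 of 29 had both A arrays on top, and of the ligands and receptors 3 of 18.

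The actin 3′ minus 5′ difference was 1.68 on treated A and 0.89 on untreated A, against 0.63 to 0.79 on the other 6 arrays. For GAPDH it was 0.54 and 0.14, against 0.06 to 0.10. Both differences were thus much larger on treated A, with untreated A only slightly above the other 6 arrays. Their part in the letter A pattern was not tested. Of the 5 leukocyte markers, PTPRC had both A arrays above the other 6 (an excess of 0.51 log2) and LCP2 had both below them (-0.22), and the part of such cells was not tested. Taken alone, untreated array A was above the other 3 untreated arrays in 13 of the 25 targets, against 32.2% of all genes, and in 7 of the 9 member genes. For TNFAIP3 202644_s_at untreated A exceeded the next untreated array by over 1 log2 unit.

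The fit without letter A and with the block was chosen after the values in letter A were seen, so its counts are a description. In it 5 of the 25 targets were lower after TGFβ and 0 higher, against 4.66% and 1.94% of all genes. They were CXCL2 (-0.63 ± 0.10), CCL20 (-0.55 ± 0.11), IRF1 (-0.53 ± 0.10), SOD2 (-0.47 ± 0.11) and IL6 (-0.46 ± 0.11; SE, 3 letters, limma adjusted p between 0.00196 and 0.0216). In CCL20, CXCL2, SOD2 and IL6 the treated array was lower in B, C and D but higher in A, by 0.99, 0.20, 0.23 and 0.07. Of the 9 IκB-like and nuclear regulators 1 fell, NFKBIZ (-0.38 ± 0.11 SE, adjusted p = 0.0491), which was 0.10 higher in letter A. Of the 29 kinases and adaptors MAP3K14 rose (0.50 ± 0.11 SE, adjusted p = 0.0181) and TRAF5 fell (-0.72 ± 0.11 SE, adjusted p = 0.000957). TRAF5 was lower in letter A too (-0.18). Of the 18 ligands and receptors 2 rose, IL1A (0.79 ± 0.14 SE, adjusted p = 0.00342) and IL1RAP (0.41 ± 0.10 SE, adjusted p = 0.0242). The interleukin-1 receptor IL1R1 fell (-0.43 ± 0.10 SE, adjusted p = 0.0176), though it was 0.09 higher in letter A. Together 11 of the 81 other pathway genes passed, 3 higher and 8 lower, against 6.59% of all genes. Among the members REL and NFKBIA fell and 0 rose. In the same fit without letter B, C or D, 0 of the 9 member genes passed, against 1.46%, 1.62% and 1.8% of all genes. Whether the response of letter A differs from that of the other letters was not tested.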

How the data were processed

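The authors deposited RMA values, log2 signals with a row for each probe set and a column for each array, per the submitters' processing notes. RMA corrects background, normalizes between arrays and summarises probes, and it compresses changes close to background. Its version and the set of arrays it was run on were not given in the sources used here. A log2 base fits RMA and values of 1.68 to 13.92, though no header gives it. After 62 control probe sets were set aside, 54613 remained. GEO's platform annotation of 2016 names 1 gene for 41091 of them, which gave 19775 genes, each represented by its probe set with the highest mean.

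The test was that of limma 3.58.1 under R 4.3.3 (two-sided moderated fit of treated against untreated arrays), with Benjamini-Hochberg adjustment over all probe sets or all genes and a threshold of 0.05. Deviations from the group means correlated at 0.49, 0.69, 0.34 and 0.30 between same-letter arrays A to D, so the letters were taken to pair the arrays, since the labels are silent. Untreated C also correlated with treated D (0.33) and untreated D with treated C (0.31), so for D the same letter was not the closest, and for C it was so only narrowly. Fits without this block come first in the text and block fits beside them. The number of arrays limits the precision. The fit without the block was tested on simulated independent arrays without a letter effect, and the block fits were not tested in this way. Figures were drawn with matplotlib 3.10.9.

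The members and lists were chosen with earlier results of these data known. Named are all members, the 3 genes with the smallest p of each list and any that pass without the block, SMAD7, JUNB and the 3 genes most like NFKBIA and TNFAIP3. Genes named for passing with the block, or for their values in letter A or the cell type lists, were chosen after their values were seen. Of 89 symbols of other pathway genes 81 had a value. Alternatives were the block, only the upper 60% of signals, centring, quantile normalization again, another prior, other choices of probe sets and each array left out, and, added after seeing the data, the block fit without each letter. Genome coordinates are RefSeq's.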

Additional observations from a re-analysis of the deposited data

Results flagged for a closer look

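An array far from the other 3 of its group was looked for in both groups of each of the 20 probe sets. Of these 40 groups 4 were picked out, where chance alone picks about 1 in 20. NFKB1 209239_at was low in untreated array B, at 7.74 against 8.02 to 8.06 in the others. TNFAIP3 202644_s_at was high in untreated array A, at 8.40 against 7.18 to 7.32, and in treated array A, at 8.72 against 7.00 to 7.20. TNFAIP3 202643_s_at was high in treated array A, at 7.41 against 6.05 to 6.24.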

How the results depend on the processing

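No member probe set or member gene passed under any of these settings: the replicate block, the upper 60% of signals, centring, quantile normalization again, the other prior, the other choices of probe sets and each array left out, and no other pathway gene passed except with the block. The replicate block moved the other pathway genes that changed from 0 to 4 and changed no other call of the members or lists. Over all features it raised the calls from 140 to 954 probe sets and from 114 to 705 genes. In the block fit without letter A 1 member probe set, 2 member genes and 11 other pathway genes changed (6.59% of all genes), and REL (-0.51) and NFKBIA (-0.35) passed. Without letter B 1 of the 81 other pathway genes changed (1.46% of all genes), without letter C 0 (1.62%) and without letter D 2 (1.8%). With single arrays left out, the fold changes ranged from 0.19 to 0.33 for NFKB1, -0.33 to -0.02 for NFKB2, 0.07 to 0.19 for RELA, 0.08 to 0.30 for RELB, -0.57 to -0.25 for REL, -0.46 to -0.16 for NFKBIA, 0.07 to 0.17 for NFKBIB and 0.08 to 0.41 for NFKBIE.

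Signs that turned all belonged to differences that did not pass. TNFAIP3, at -0.03, was 0.0236 after quantile normalization again, 0.00467 in the block fit without letter B and 0.0490 without letter D, and it ranged from -0.43 to 0.26 when single arrays were left out. It was 0.26 without untreated A, and 0.08, 0.10 and 0.14 without treated B, C and D. NFKBIA was 0.10 without probe sets ending in _x_at or _s_at, since only its dim probe set remained, and that setting left no value for RELA and TNFAIP3. NFKB2 was 0.11 in the block fit without letter A. The cause of the other turns was not tested. Of the 20 probe sets 5 had a mean under the array median, and no background level was measured for them.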
